A study of Mus musculus with 6 samples.

Results

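Solute carriers are the membrane proteins, grouped in numbered Slc families, that move amino acids, sugars, ions, metals, vitamins and metabolites into and out of cells and organelles. The genes described here were the array's probes whose only annotated symbol starts with Slc and a digit. Slc2a1 and Slc16a3 were left out, and 1 probe stood for each symbol, the one with the highest mean over the 6 arrays. This gave 168 genes in 46 families, of 8841 genes with a single symbol on the array. The rule reads symbols and mean intensity, and it was set with earlier results of these data known.

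The RNA came from 2T3 cells, an established mouse pre-osteoblast line, so all samples share 1 line and its culture history. One group of 3 samples (static) stayed still in OptiCells, closed culture cassettes with gas-permeable walls. The other group of 3 (simulated microgravity) was in the same cassettes on a Random Positioning Machine, which keeps turning the cultures about changing axes so that gravity has no lasting direction. The labels give neither the length of exposure nor the medium or any added agent. Whether the 3 samples of each group were separate cultures is also unstated, so the p-values rest on a spread between samples that may be technical.

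Carriers set which nutrients a cell can use. Several exchangers of the Slc7 family, Slc7a5 and Slc7a11 among them, work as heterodimers with the heavy chain Slc3a2, carriers of the Slc25 family sit in the inner mitochondrial membrane, and zinc, copper and iron are handled by the Slc11, Slc30, Slc31, Slc39 and Slc40 families. In bone-forming cells the carriers best known for their part in matrix and mineral are the sodium-phosphate cotransporter Slc20a1, the sulfate carrier Slc26a2, which supplies sulfate for proteoglycans, and the zinc carrier Slc39a13. Cystine uptake through Slc7a11 supplies cysteine for glutathione, and its gene is a known target of the amino acid response.

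Of the 168 genes, 4 (Slc13a1, Slc13a2, Slc16a13 and Slc32a1) lay at the floor of 0.1 times the array median on all 6 arrays and were not tested. In all, 39 genes had at least 1 value at the floor. There the floor can shrink or enlarge a difference, or change its sign. Values below are probe intensities divided by the array's median, so they compare samples for 1 gene and not genes with each other. The arrays were not alike at the dim end. Static 2 held 10 solute carrier genes at the floor and microgravity 2 held 7, against 24 to 31 on the other 4 arrays, while over all probes the floor took 9.16%, 6.44% and 17.1% to 19.8% of values. Of 139 genes without ties, 37 (26.6%) were lowest on static 1 within their group and on microgravity 3 within theirs, against 21.7% of all probes without ties, and 29 (20.9%) were lowest on static 3 and microgravity 1, against 22.9%. Another 18 (12.9%) were lowest on static 2 and microgravity 2, against 18.9%. What sets these arrays apart was not tested.

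The label of a pre-osteoblast was set against marker lists. Of 11 osteoblast markers 7 were measured, all above the floor on every array. Over the 6 arrays Omd, Postn, Col1a1 and Bgn read at least 11.5 times the array median, Pth1r 0.967 to 5.77, Alpl 0.518 to 3.42 and the late marker Ibsp 0.154 to 0.289. Probes differ in response, so these values and the sums below set arrays side by side within a gene or list, and they rank neither genes nor cell types. The summed osteoblast level was 225 to 254 on the static arrays and 103 to 132 on the microgravity arrays. Most of the difference came from Omd (mean 76.8 to 14.1) and Postn (75.7 to 39.1). Pth1r, Alpl and Omd were lower at a limma adjusted p of 0.0194 to 0.0295, and 0.187% of all probes were called lower. With any 1 array left out, these markers did not pass. Postn, Col1a1, Bgn and Ibsp did not pass (limma adjusted p = 0.093, 0.631, 0.881 and 0.988). Bgn and Ibsp read 0.92 and 0.96 times static. Fewer cells of a type and less RNA per cell cannot be told apart in such samples. Of the other lists, muscle (5 of 5 measured), endothelium (4 of 4) and epithelium (4 of 4) summed to between 0.237 and 0.975 on each array, and chondrocyte (4 of 6) to at most 2.77. Adipocyte markers (4 of 6) summed to 42.5 to 50.1 in static and 35.4 to 40.9 in simulated microgravity, with Adipoq near the floor. Macrophage and blood markers (3 of 5) summed to 3.28 to 3.49 and 3.21 to 4.0, with Ptprc near the floor. No gene of these 6 lists passed the threshold (0 by limma, with 1, Lpl, at an unadjusted p under 0.05). The part of the osteoblast markers' difference in the carriers' values was not tested.

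No solute carrier gene passed an adjusted p of 0.05 between static and simulated microgravity (0 of 164 by limma, against 28 of 10146 probes, 0.276%, with 0.187% lower and 0.0887% higher). At an unadjusted p under 0.05 there were 19 genes, 8 lower and 11 higher in simulated microgravity (5.28% of all probes were lower and 5.56% higher), which is 11.6% of those tested beside 10.8% of all probes. The groups did not overlap in 27 genes, 10 lower and 17 higher (7.57% and 8.11% of all probes), which is 16.5% beside 15.7% of all probes. Both shares lie near the background, so they are not a result about the carriers, and the 19 genes below are described by their values. Groups did not overlap in 18 of the 19, and did in Slc7a5. Over all 164 genes, 96 read higher and 68 lower, and with no floor 99 and 65. The median log2 change was 0.056 beside 0.046 for all probes, and the median size of the change was 0.21 beside 0.19. The 95% interval of the log2 change spanned 0 in 145 genes and lay within 2-fold either way in 114. Of the 70 genes with a group mean above the array median, 15 had an unadjusted p under 0.05 (21.4%, beside 16.0% of such probes), and of the 94 dimmer ones 4 (4.26%, beside 4.87%). Only Slc16a9 and Slc19a3 differed by 2-fold or more. Without microgravity 2, 78 of 160 genes read higher and 82 lower, and 16 had an unadjusted p under 0.05. The count of 19 was 13 without static 2 and microgravity 2, 15 without static 1 and microgravity 3, and 11 without static 3 and microgravity 1. With each of these pairs left out in turn, the log2 change ran from -1.34 to -1.12 for Slc16a9, 0.86 to 0.95 for Slc25a39, 0.81 to 1.07 for Slc1a5, 0.53 to 0.88 for Slc7a11 and 0.62 to 0.86 for Slc20a1.

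**Figure D1:**
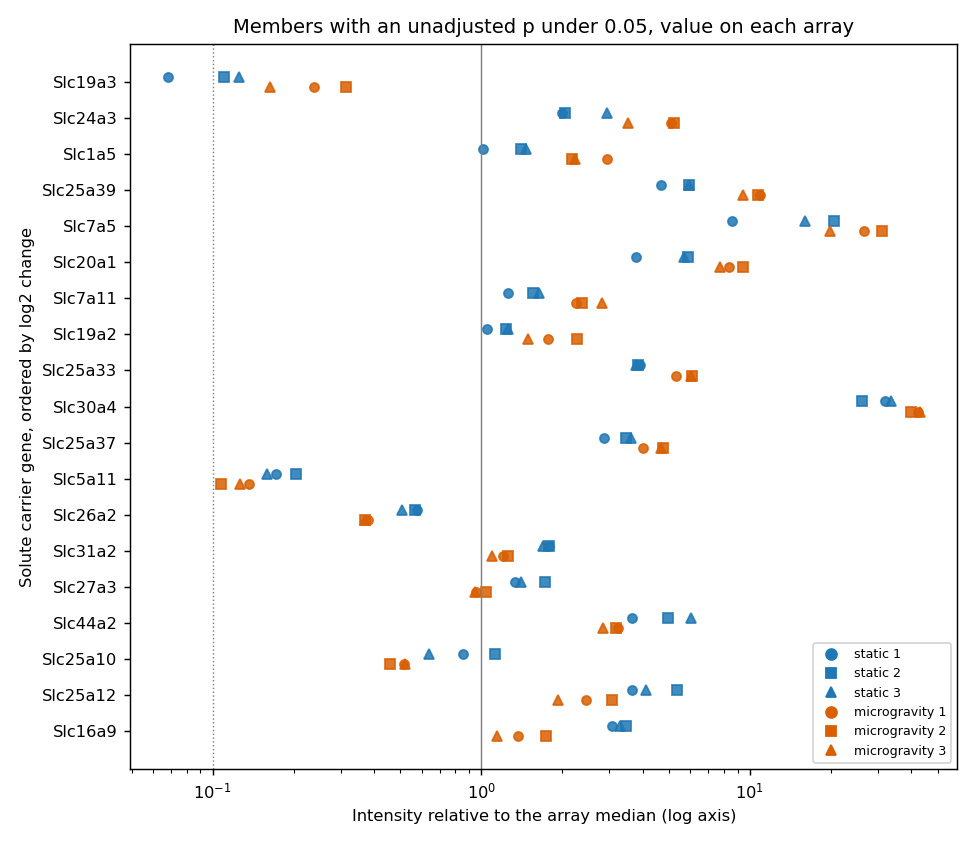
The 19 solute carrier genes with an unadjusted p under 0.05, ordered by log2 change, with each array's intensity relative to its median on a log axis (blue static, orange microgravity, marker shape for the replicate; solid line at the median, dotted line at the floor of 0.1). Groups are apart in 18 genes, and in Slc7a5 static 2 at 20.6 lies above microgravity 3 at 19.9.

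Amino acid carriers were taken by family number (Slc1, Slc3, Slc6, Slc7, Slc36, Slc38 and Slc43). The name need not hold for each member, and Slc3a2 is a heavy chain. Of the 34 genes, 21 read higher in simulated microgravity and 13 lower, beside 57.0% of all probes higher. The median log2 change was 0.087. The 3 with an unadjusted p under 0.05 were all higher (Slc1a5, Slc7a11 and Slc7a5), and the 4 whose groups did not overlap were all higher. These shares, 8.82% and 11.8% of the class, lie below the 10.8% and 15.7% of all probes in either direction. They lie above the 5.56% and 8.11% of all probes that were higher by the same rules. No test of the class was made. By family, 5 of 6 Slc1 and 8 of 10 Slc7 genes read higher, against 2 of 5 Slc38 and 5 of 8 Slc6 genes. Changes of the 34 ran from -0.49 for Slc6a6, the taurine carrier, to 0.92 for Slc1a5.

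Slc1a5 exchanges neutral amino acids and is a main route of glutamine entry. Its intensity was 1.02, 1.41 and 1.47 times the array median in static 1, 2 and 3 and 2.94, 2.18 and 2.24 in microgravity 1, 2 and 3. Every microgravity array lay above every static one, from 1.3 ± 0.248 (SD, n = 3) to 2.45 ± 0.425, a ratio of 1.9 (log2 change 0.92, SE 0.23, limma adjusted p = 0.18). The related neutral carrier Slc1a4 read 5.65, 11.1 and 10.8 in static and 11.6, 13.8 and 8.33 in simulated microgravity. Those groups overlapped, with static 1 and microgravity 3 the lowest of their groups (log2 change 0.33, SE 0.32, limma adjusted p = 0.857). The other non-overlapping genes of the class, beside Slc7a11 below, were the glutamate carriers Slc1a1 and Slc1a6, named after their values were seen. Slc1a1 read 0.295, 0.484 and 0.36 against 0.491, 0.662 and 0.499 (limma adjusted p = 0.571). Slc1a6 read 0.338, 0.449 and 0.448 against 0.613, 0.535 and 0.522 (limma adjusted p = 0.59).

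The large neutral amino acid exchanger Slc7a5 and its heavy chain Slc3a2 read higher on average without passing. Slc7a5 was at 8.58, 20.6 and 16 in static 1, 2 and 3 and 26.7, 31 and 19.9 in microgravity 1, 2 and 3, and the groups met between static 2 and microgravity 3 (log2 change 0.85, SE 0.34, limma adjusted p = 0.44, 95% interval 0.031 to 1.66). Slc3a2 was at 18.6, 12.3 and 23.1 in static and 27.6, 19.5 and 34.6 in simulated microgravity, again overlapping, at a ratio of 1.52 (log2 change 0.61, SE 0.30, limma adjusted p = 0.574, interval -0.11 to 1.32). The lowest arrays were static 1 and microgravity 3 for Slc7a5 but static 2 and microgravity 2 for Slc3a2. Without static 1 and microgravity 3 the log2 change of Slc7a5 was 0.66, and without static 3 and microgravity 1 it was 0.90.

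Slc7a11, the cystine-glutamate exchanger, read 1.26, 1.56 and 1.64 in static and 2.25, 2.37 and 2.8 in simulated microgravity. The groups were apart, and the ratio was 1.67 (log2 change 0.74, SE 0.19, limma adjusted p = 0.191). Of the other carriers in the set looked up for a role in bone or growth, the cationic amino acid carrier Slc7a1 was at 0.284, 0.27 and 0.214 against 0.212, 0.257 and 0.457, with microgravity 3 alone above the static range. Slc38a2, which takes up small neutral amino acids, was at 3.53, 2.62 and 2.02 against 2.83, 1.35 and 5.21. Its spread was wide, with microgravity 2 the lowest and microgravity 3 the highest of the 6 arrays (log2 change 0.032, interval -1.12 to 1.19).

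The promoter of Slc7a11 is shown because it holds the amino acid response core TGATGNAA (N is any base), searched on both strands in windows from 250 bases before to 50 after RefSeq start sites of GRCm38.p6. The 250 bases before the start, chr3:50443614-50443863 on the minus strand, are printed 5′ to 3′ with the matches in capitals.
Slc7a11: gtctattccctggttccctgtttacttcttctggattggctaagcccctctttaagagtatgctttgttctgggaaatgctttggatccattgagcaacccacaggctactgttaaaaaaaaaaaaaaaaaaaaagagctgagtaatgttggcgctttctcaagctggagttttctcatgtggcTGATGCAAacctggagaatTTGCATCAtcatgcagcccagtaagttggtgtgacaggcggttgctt
One match starts at base -66 from the start site and the other, on the opposite strand, at -47. The core was in 6 of the 188 windows found for 136 of the 168 genes (3.19%), those of Slc17a1, Slc1a4, Slc50a1, Slc7a11 and Slc7a7, beside 3.97% of all 32851 windows and 2.47% of those of genes on the array. Of 40 windows of amino acid carriers 4 held it (10.0%), those of Slc1a4, Slc7a11 and Slc7a7 among 25 genes. The Slc7a7 windows overlap and share a match. A match is a description of letters, and nothing here measures binding. Slc1a4, Slc7a7, Slc50a1 and Slc17a1 had limma adjusted p of 0.857, 0.979, 0.673 and 0.812.

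Genes of amino acid supply were counted beside the carriers from a list of 33 enzymes, tRNA ligases and stress response factors, which was also chosen with earlier results known and is no independent evidence of a direction. Of 19 measured, 18 read higher, beside 57.0% of all probes, and 1, Glul, lower, with a median log2 change of 0.34 beside 0.046 for all probes. Cth, which makes cysteine from cystathionine, was the 1 that passed, rising 2.46-fold, with a mean of 5.79 ± 0.233 in static and 14.4 ± 2.74 in simulated microgravity (log2 change 1.30, SE 0.17, limma adjusted p = 0.0464). It did not pass with any 1 array left out, and 0.0887% of all probes were called higher. Another 6 had an unadjusted p under 0.05, all higher: Wars, Phgdh, Got1, Atf3, Shmt2 and Chac1. Of all probes 5.56% were higher at that p, and no test of the list was made. Wars, the tryptophan tRNA ligase, read 2.0, 2.92 and 1.87 against 4.39, 4.7 and 5.01 (limma adjusted p = 0.103). Phgdh, the first enzyme of serine synthesis, read 9.28, 10.4 and 12.5 against 18.7, 18.1 and 16.6 (limma adjusted p = 0.132). The groups overlapped in Asns, the asparagine synthetase, at 36.5, 49.2 and 42.9 against 45.5, 68.2 and 56.4. They overlapped also in Atf4, the transcription factor of the amino acid response, at 182, 174 and 145 against 163, 163 and 226.

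**Figure D2:**
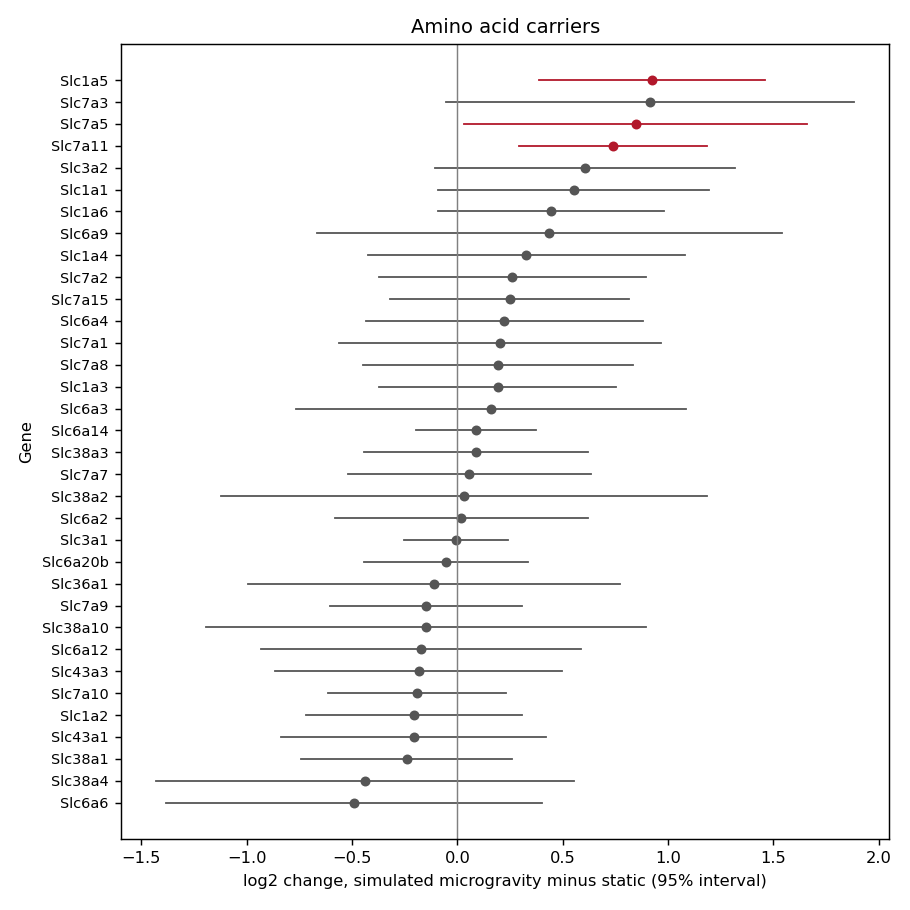
The log2 change of each of the 34 amino acid carriers, simulated microgravity minus static, with its 95% interval from limma (red where the unadjusted p is under 0.05, grey otherwise). Only Slc1a5, Slc7a5 and Slc7a11 have intervals clear of 0, and the intervals of the others, Slc7a3 and Slc3a2 among them, span it.

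The mitochondrial carriers of the Slc25 family were divided. Of 21 genes, 14 read higher and 7 lower (median log2 change 0.17), and 5 had an unadjusted p under 0.05, 3 higher (Slc25a39, Slc25a33 and Slc25a37) and 2 lower (Slc25a12 and Slc25a10). The groups did not overlap in these 5. At that p their share, 23.8%, stands beside 10.8% of all probes and 16.0% of probes with a group mean above the array median. By non-overlap the same share stands beside 15.7% and 22.5%. Of all probes 57.0% read higher, and no test of the family was made.

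Slc25a39, which carries glutathione into mitochondria, read 4.66, 5.96 and 5.95 in static 1, 2 and 3 and 10.9, 10.7 and 9.44 in microgravity 1, 2 and 3. All 3 microgravity values lay above all static ones, from 5.52 ± 0.75 to 10.3 ± 0.786, a ratio of 1.88 (log2 change 0.91, SE 0.15, limma adjusted p = 0.0915, interval 0.54 to 1.28). With array weights its adjusted p was 0.046. The pyrimidine nucleotide carrier Slc25a33 was at 3.91, 3.83 and 3.76 against 5.33, 6.08 and 6.05, with the static arrays close together (log2 change 0.60, SE 0.13, limma adjusted p = 0.134). The iron carrier Slc25a37 was at 2.86, 3.47 and 3.6 against 3.99, 4.75 and 4.65 (log2 change 0.43, SE 0.16, limma adjusted p = 0.383).

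The other direction held Slc25a12, the aspartate-glutamate carrier of the malate-aspartate shuttle, at 3.64, 5.37 and 4.1 in static and 2.46, 3.08 and 1.93 in simulated microgravity (log2 change -0.82, SE 0.23, limma adjusted p = 0.245). Slc25a10, the dicarboxylate carrier, was at 0.852, 1.12 and 0.639 against 0.515, 0.456 and 0.521 (log2 change -0.77, SE 0.27, limma adjusted p = 0.347). The second aspartate-glutamate carrier, Slc25a13, named after its values were seen, overlapped at 0.734, 0.994 and 0.873 against 0.846, 0.834 and 0.609. The citrate carrier Slc25a1, named likewise, overlapped at 3.46, 2.65 and 2.49 against 2.13, 1.26 and 2.7. Neither ADP/ATP exchanger separated the groups. Slc25a4 read 66.6, 64.7 and 50.4 against 53.2, 69.5 and 62.6 (log2 change 0.031, interval -0.42 to 0.48). Slc25a5 read 60.3, 82.4 and 52.6 against 70.7, 93.3 and 78.7 (log2 change 0.33, interval -0.20 to 0.86).

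**Figure D3:**
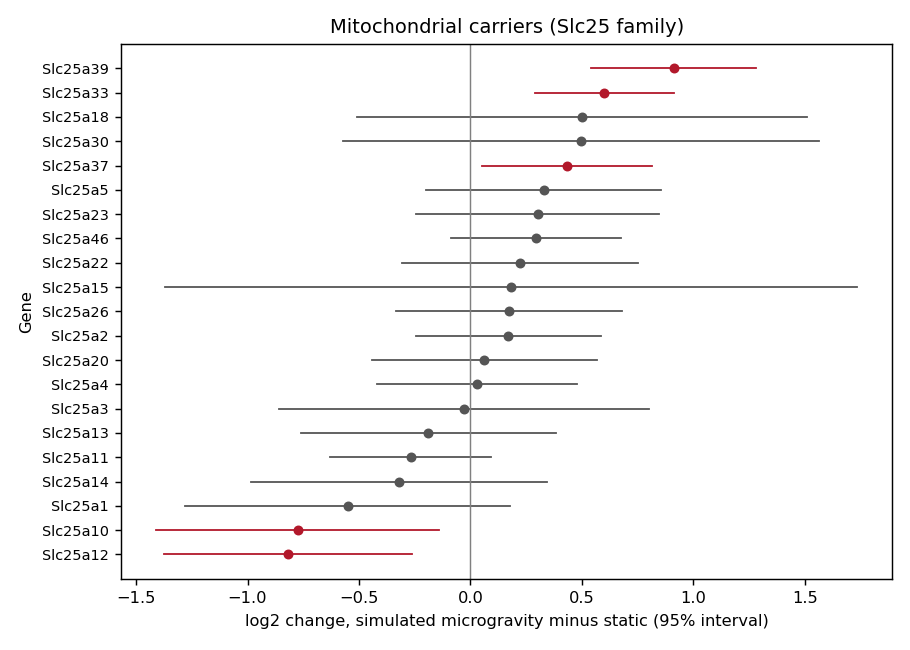
The log2 change of each of the 21 mitochondrial carriers, simulated microgravity minus static, with its 95% interval from limma (red where the unadjusted p is under 0.05, grey otherwise). Slc25a39, Slc25a33 and Slc25a37 lie above 0 and Slc25a10 and Slc25a12 below it, and the interval of Slc25a15 is the widest.

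Slc16a9, a monocarboxylate carrier family member linked to carnitine, had the smallest adjusted p and the largest ratio of all 164 genes. It read 3.07, 3.46 and 3.28 in static 1, 2 and 3 and 1.37, 1.75 and 1.14 in microgravity 1, 2 and 3. Each microgravity value was below every static one, from 3.27 ± 0.196 to 1.42 ± 0.304, 2.33-fold lower (on the log2 scale -1.22 with SE 0.20, limma adjusted p = 0.0886, interval -1.70 to -0.75). It passed with array weights, no floor or the dimmest 25% or 50% of probes left out (adjusted p = 0.032, 0.048, 0.046 and 0.043 by limma), settings under which 115, 59, 59 and 54 probes passed (1.13%, 0.565%, 0.775% and 1.06%). The lactate carrier Slc16a1 read 3.56, 7.35 and 7.04 against 9.24, 9.07 and 4.35 and overlapped, with static 1 and microgravity 3 low (log2 change 0.33, SE 0.39, limma adjusted p = 0.883). The remaining tested genes of the family, Slc16a7 and Slc16a11, each had a log2 change of 0.11.

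The sodium-phosphate cotransporter Slc20a1 separated the groups, reading 3.76, 5.91 and 5.68 in static and 8.38, 9.39 and 7.74 in simulated microgravity. Means were 5.12 ± 1.18 and 8.51 ± 0.833, a ratio of 1.69 (log2 change 0.76, SE 0.21, limma adjusted p = 0.222), and static 1 was the lowest array. Slc34a1, best known as the phosphate carrier of the kidney, read 0.587, 0.441 and 0.408 against 0.427, 0.462 and 0.554 (log2 change 0.016, interval -0.56 to 0.59). Of 7 tested phosphate and dicarboxylate genes, 5 read higher (71.4%, beside 57.0% of all probes, median 0.18). Groups did not overlap in 3 (42.9%, beside 15.7% of all probes), Slc20a1, the lysosomal sialic acid carrier Slc17a5 and Slc13a3. The class is small, and no test of it was made. Slc17a5 and Slc13a3 had limma adjusted p = 0.663 and 0.684. Slc20a2 was not analysed here.

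The E-box CACGTG, the site bound by Myc and related factors, was found in promoters of Slc20a1 and Slc25a33, which are shown because they hold it among the 11 genes that read higher at an unadjusted p under 0.05. The 250 bases before each start site are chr2:129198523-129198772, plus strand, for Slc20a1 and chr4:149774268-149774517, minus strand, for Slc25a33, with the E-box in capitals.
Slc20a1: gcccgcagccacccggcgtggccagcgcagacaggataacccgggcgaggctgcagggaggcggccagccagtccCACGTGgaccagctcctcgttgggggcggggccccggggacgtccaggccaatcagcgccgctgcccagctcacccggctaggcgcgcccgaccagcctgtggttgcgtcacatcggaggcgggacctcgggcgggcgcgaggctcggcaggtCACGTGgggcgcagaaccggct
Slc25a33: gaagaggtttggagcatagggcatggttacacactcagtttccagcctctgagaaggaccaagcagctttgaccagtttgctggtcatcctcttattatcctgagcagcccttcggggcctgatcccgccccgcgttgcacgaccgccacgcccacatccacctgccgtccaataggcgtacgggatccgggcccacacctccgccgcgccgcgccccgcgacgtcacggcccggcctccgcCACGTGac
The matches start at -175 and -22 in Slc20a1 and at -8 in Slc25a33. Of the 188 windows of solute carrier genes 28 held the E-box (14.9%), beside 7.15% of all windows and 9.56% of those of genes on the array. Slc31a2 also held it and read lower. The Slc12a7 windows that held the E-box overlap and share a match, as do those of Slc25a14, so windows are not separate genes. Another Slc20a1 window held no E-box. No test of the share was made. The remaining motifs searched were the NRF2 element TGACNNNGC (15.4% of the carriers' windows, 13.6% of those of array genes), the glucocorticoid motif AGAACA (13.3% and 14.3%), the short metal response core TGCNCNC (58.5% and 59.0%) and a sterol element (0 of 188 windows, and 0.0443%). In these 3 sequences the capitals overlap no other motif searched.

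Metal carriers were split, with 8 of 15 higher and 7 lower (median log2 change 0.036). Slc30a4, which moves zinc out of the cytosol, read 31.9, 26.1 and 33.7 in static and 42.3, 40.0 and 43 in simulated microgravity, without overlap (log2 change 0.46, SE 0.15, limma adjusted p = 0.325). Slc31a2, of the copper carrier family, went the other way at 1.78, 1.79 and 1.7 against 1.2, 1.26 and 1.1, also without overlap (log2 change -0.57, SE 0.17, limma adjusted p = 0.262). The zinc carriers Slc39a13, Slc39a8 and Slc30a1 and the iron carrier Slc11a2 had log2 changes of -0.22, -0.049, 0.063 and -0.21, and the groups overlapped in each. Slc40a1, the iron exporter, was at the floor on 5 of 6 arrays. Slc39a14 was not analysed here.

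Of 22 inorganic ion genes, 12 read higher and 10 lower (median 0.049). This class holds Slc4a1ap, Slc9a3r1 and Slc9a3r2, which are partner proteins and not carriers. Without these 3 genes, 19 of 161 had an unadjusted p under 0.05 (11.8%). Slc24a3, which exchanges sodium for calcium and potassium, read 1.99, 2.04 and 2.94 in static and 5.1, 5.2 and 3.53 in simulated microgravity. Groups were apart, with static 3 and microgravity 3 nearest each other, at a ratio of 1.99 (log2 change 0.99, SE 0.24, limma adjusted p = 0.172, interval 0.43 to 1.55). The sulfate carrier Slc26a2 was at 0.578, 0.567 and 0.509 in static and 0.378, 0.37 and 0.371 in simulated microgravity, tight within each group and a 1.48-fold difference downward (log2 change -0.56, SE 0.20, limma adjusted p = 0.354). Slc12a2, Slc4a2 and Slc8a1, carriers of sodium, potassium and chloride, of chloride and bicarbonate, and of sodium and calcium, had log2 changes of 0.36, -0.23 and 0.16, with overlapping groups.

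Among 10 carriers of vitamins, nucleosides and heme, 7 read higher (median log2 change 0.17). Groups did not overlap in 2 of the 10, the thiamine carriers Slc19a2 and Slc19a3, both higher. Of all probes 15.7% did not overlap in either direction, and 8.11% were higher by that rule. No test of the class or of this pair was made. Slc19a2 read 1.05, 1.23 and 1.26 against 1.78, 2.28 and 1.5 (log2 change 0.63, SE 0.22, limma adjusted p = 0.35). Slc19a3 read 0.068, 0.111 and 0.126 against 0.239, 0.313 and 0.163, with static 1 below the floor, and its log2 change was 1.05 (SE 0.26, limma adjusted p = 0.181). It was 0.30 to 1.29 over the alternatives, lowest with the floor at 0.2. The folate carrier Slc19a1, named after its values were seen, was at 3.86, 3.43 and 3.27 against 3.58, 4.33 and 4.7, overlapping at static 1. The nucleoside carrier Slc29a1 overlapped too (log2 change 0.29, SE 0.19, limma adjusted p = 0.769).

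Lipid, choline and acetyl-CoA carriers had 4 genes higher and 4 lower (median -0.031). Of these 8 genes, 2 had an unadjusted p under 0.05, both lower. Of all probes 10.8% had such a p in either direction, and 5.28% were lower at it. The class is small, and no test of it was made. Slc44a2, of the choline-transporter-like family, read 3.66, 4.97 and 6.03 against 3.24, 3.17 and 2.83 (log2 change -0.64, SE 0.21, limma adjusted p = 0.319). Slc27a3, of the fatty acid transport and activation family, read 1.34, 1.73 and 1.4 against 0.957, 1.04 and 0.951 (log2 change -0.59, SE 0.19, limma adjusted p = 0.318). The acetyl-CoA carrier Slc33a1 had a log2 change of 0.066 (interval -0.39 to 0.53). Slc44a1 was not analysed here.

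Sugar carriers were lower more often than higher, 9 to 6 (median log2 change -0.11). At an unadjusted p under 0.05 there was 1 (6.67%, beside 10.8% of all probes). That was Slc5a11, a myo-inositol carrier whose values were near the floor, 0.172, 0.204 and 0.159 against 0.136, 0.108 and 0.126 (log2 change -0.53, SE 0.17, limma adjusted p = 0.30). Its log2 change was between -0.68 and -0.010 over the alternatives, nearest 0 with the floor at 0.2. The glucose carriers Slc2a3 and Slc2a4 had log2 changes of -0.033 and 0.25, with Slc2a3 at the floor on 4 arrays. The sugar efflux protein Slc50a1 read 4.83, 4.47 and 3.92 against 3.26, 3.47 and 4.15 (log2 change -0.28, SE 0.16, limma adjusted p = 0.673), and Slc37a2, a sugar-phosphate carrier of the endoplasmic reticulum, 0.94, 0.627 and 0.866 against 0.749, 0.682 and 0.999. Nucleotide sugar carriers of the Slc35 family had 4 of 11 higher and 7 lower (median -0.026), 0 of them with an unadjusted p under 0.05. Slc35e3 had a log2 change of -0.13 (interval -0.49 to 0.23), and Slc35d1 was not analysed here.

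Organic ion carriers read higher in 8 of 12 genes (66.7%, beside 57.0% of all probes, median 0.18), 0 with an unadjusted p under 0.05. The urate carrier Slc22a12 had a log2 change of -0.19. The peptide carrier Slc15a2, the vesicular polyamine carrier Slc18b1 and the urea carrier Slc14a2 had log2 changes of 0.094, -0.23 and 0.10. None of these 4 separated the groups.

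**Figure D4:**
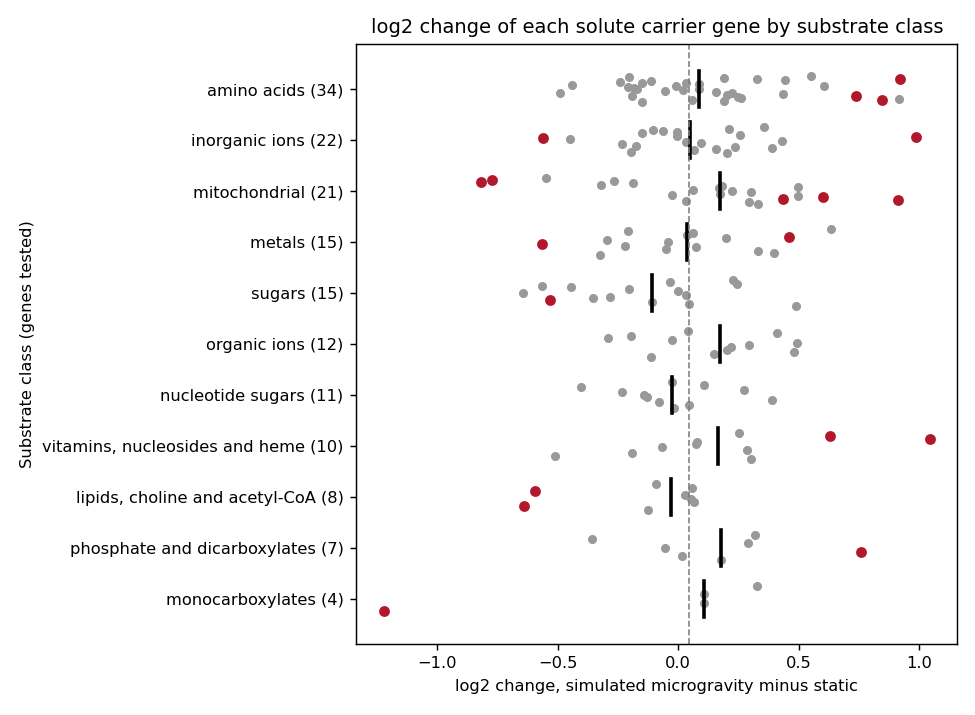
The log2 change of each tested solute carrier gene by substrate class, simulated microgravity minus static (each point 1 gene, red where the unadjusted p is under 0.05; black bar, class median; dashed line, median of all probes at 0.046). Class medians lie between -0.11 for sugars and 0.18 for organic ions and for phosphate and dicarboxylates, and classes of fewer than 3 tested genes are not drawn.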

How the data were processed

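Total RNA of 6 samples was measured on 1 array each. The deposited table holds intensity on a linear scale, and the labels record no step by which the authors made it, scaling included. The medians of the deposited columns were 0.908 to 0.927, so the arrays were treated as already scaled. Intensities were divided by the median of their array, floored at 0.1 of it and put on a log2 scale. Groups were compared with limma 3.58.1 (R 4.3.3; lmFit, eBayes with trend, 2-sided, Benjamini-Hochberg over 10146 probes, threshold 0.05), leaving out probes at the floor on all arrays or with fewer than 2 values in a group. Slc7a2 on static 2 and Slc7a9 on microgravity 2 were empty, and those fits used 5 arrays. No value is imputed. With 3 arrays per group, precision is limited by their number. The fit was tested on simulated data.

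Symbols came from GEO's platform annotation, where 8983 of 10500 probes had 1 symbol, 1 had several and 1516 had none. All 168 symbols matched a RefSeq gene table, and promoters came from RefSeq (GRCm38.p6). No source used here names the probes' genome build. Members, substrate classes and lists (amino acid supply, other transport genes, cell type markers, 6 promoter motifs) were chosen with earlier results of these data known. Genes named were up to 12 members in each direction with an unadjusted p under 0.05, the member of each class with the highest mean intensity, and a set of 30 carriers with a role in bone or growth, 25 of them measured. Members named otherwise, to complete a count or mark a range, were chosen after their values were seen. The alternatives were quantile and cyclic loess normalization, other floors, dim probes left out, eBayes without trend, array weights, a replicate block, arrays left out, and the mean of a gene's probes.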

Additional observations from a re-analysis of the deposited data

How the results depend on the processing

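Over 20 alternatives, 845 of 892 log2 changes of the 46 named genes kept their direction and side of the threshold, 42 in 14 genes changed sign, and 5 passed the threshold (Slc16a9 in 4 settings and Slc25a39 in 1). The settings that leave out static 1 with microgravity 3, or static 3 with microgravity 1, were chosen after seeing the data. All 19 genes with an unadjusted p under 0.05 kept their direction in every setting that could be run for them. For the 18 whose groups did not overlap, leaving arrays out could not change it. The cause of the differences below was not tested. The 28 probes called became 115 with array weights, 59 with the dimmest 25% left out or with no floor, 56 with cyclic loess, 54 with quantile normalization or the dimmest 50% left out, 53 with a floor at 0.05 and 40 with one at 0.2, 19 without the trend, and 0 with any 1 array or any of the 3 pairs left out. Solute carrier genes called numbered 2 with array weights, 1 with no floor or either share of dim probes left out, and 0 otherwise. Their count at an unadjusted p under 0.05 was 11 without static 3 and microgravity 1, and 14 to 21 with 1 array left out. Class medians moved by more than their spread between arrays in 29 of 207 values: with array weights -0.25 for sugar carriers, 0.079 for phosphate carriers and 0.25 for vitamin carriers; with the dimmest 25% of probes left out 0.20 for amino acid carriers and 0.25 for vitamin carriers; with the dimmest 50% left out 0.29 for amino acid carriers, 0.29 for phosphate carriers, 0.29 for vitamin carriers and -0.28 for lipid carriers; with a floor at 0.05 of the median -0.20 for sugar carriers; with a floor at 0.2 0.25 for vitamin carriers; with no floor -0.20 for sugar carriers; with quantile normalization 0.077 for vitamin carriers; without static 1 and microgravity 3 0.30 for phosphate carriers; without static 2 and microgravity 2 -0.20 for sugar carriers and 0.25 for vitamin carriers; without static 3 and microgravity 1 -0.049 for sugar carriers. With 1 array left out they ran over vitamin carriers 0.12 to 0.33, phosphate carriers 0.042 to 0.28, lipid carriers -0.11 to -0.024, amino acid carriers 0.013 to 0.17, sugar carriers -0.18 to -0.022, inorganic ions -0.089 to 0.18, metals -0.14 to 0.094, mitochondrial 0.11 to 0.21, monocarboxylates -0.036 to 0.20, nucleotide sugars -0.10 to 0.046 and organic ions 0.076 to 0.18. Changes of sign were, with array weights Slc15a2 -0.074, Slc34a1 -0.016 and Slc37a2 -0.090; with cyclic loess Slc25a4 -0.052; with quantile normalization Slc15a2 -0.067, Slc25a4 -0.015, Slc37a2 -0.0022 and Slc38a2 -0.0061; without static 1 and microgravity 3 Slc37a2 -0.044, Slc38a2 -0.23 and Slc7a1 -0.039; without static 2 and microgravity 2 Slc15a2 -0.15, Slc18b1 0.074, Slc25a4 -0.0060, Slc33a1 -0.073, Slc34a1 -0.0099 and Slc37a2 -0.061; without static 3 and microgravity 1 Slc30a1 -0.036, Slc34a1 -0.0084, Slc38a2 -0.20 and Slc39a8 0.022, and with 1 array left out Slc14a2 -0.024 to 0.17, Slc15a2 -0.11 to 0.20, Slc16a1 -0.0096 to 0.69, Slc18b1 -0.42 to 0.020, Slc25a4 -0.10 to 0.13, Slc2a3 -0.060 to 0.022, Slc30a1 -0.021 to 0.17, Slc33a1 -0.086 to 0.23, Slc34a1 -0.091 to 0.17, Slc37a2 -0.18 to 0.12, Slc38a2 -0.44 to 0.53, Slc39a8 -0.10 to 0.052, Slc7a1 -0.12 to 0.43 and Slc8a1 -0.0077 to 0.30.

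By their values, arrays numbered 2 went together, and those numbered 1 or 3 did not. Deviations from the group means over all probes correlated at -0.21, 0.45 and -0.18 for arrays 1, 2 and 3. The correlation was 0.66 for static 1 with microgravity 3 and 0.38 for static 3 with microgravity 1. No label joins arrays of unlike number, so no block was fitted on those pairs. With the replicate number as a block 0 probes and 0 solute carrier genes passed, and 20 genes had an unadjusted p under 0.05.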

Other observations

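Other transport genes were read from a list of 57 pumps, ABC transporters, organic anion carriers and regulators, which included Slc2a1 and Slc16a3. Of 48 tested, 33 read higher in simulated microgravity, beside 57.0% of all probes, and 15 lower, with a median log2 change of 0.12 beside 0.046 for all probes. Sgk1, a kinase that controls several ion and nutrient carriers, was the 1 that passed, rising 2.17-fold from 3.43 ± 0.224 (SD, n = 3) to 7.45 ± 0.102 (log2 change 1.12, SE 0.13, limma adjusted p = 0.0394), and it did not pass with any 1 array left out. Of all probes 0.0887% were called higher. Another 5 genes of the list had an unadjusted p under 0.05, all higher. Together the 6 of 48 stand beside 10.8% of all probes at that p, with 5.56% of all probes higher at it. Abce1, a ribosome recycling factor of the ABC family, read 17.4, 17.9 and 22.9 times the array median in static 1, 2 and 3 and 33.6, 34.8 and 29.1 in microgravity 1, 2 and 3. Abcb10, of the inner mitochondrial membrane, read 1.21, 1.12 and 1.24 against 1.82, 2.13 and 1.76. Both separated the groups, with limma adjusted p = 0.141 and 0.195. The multidrug pump Abcb1b was at 0.331, 0.463 and 0.481 against 0.975, 0.767 and 0.619. The bile salt pump Abcb11 was at 0.221, 0.208 and 0.143 against 0.312, 0.368 and 0.337.

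Tfrc, the transferrin receptor for iron uptake, read 1.25, 3.67 and 2.17 in static and 7.88, 8.37 and 2.75 in simulated microgravity. The groups overlapped, with static 1 and microgravity 3 the lowest (log2 change 1.39, SE 0.54, limma adjusted p = 0.415). The glucose carrier Slc2a1 read 3.27, 1.01 and 4.25 against 5.96, 1.84 and 7.17, with static 2 and microgravity 2 the lowest of their groups (log2 change 0.83, 95% interval -0.81 to 2.48). The lactate exporter Slc16a3 read 0.43, 0.32 and 0.352 against 0.41, 0.367 and 0.411 (log2 change 0.12, interval -0.39 to 0.63).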
